A study of Mus musculus with 9 samples.

Results

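In mouse embryonic fibroblasts (MEFs), primary cells grown out of an embryo's body, 10 genes that brake the cell cycle or answer to p53 were followed. They are *Trp53*, which encodes p53, and its inhibitor *Mdm2*, the p53 target genes *Cdkn1a*, *Ccng1*, *Bbc3* and *Sesn2*, the neighbouring inhibitor genes *Cdkn2a* and *Cdkn2b*, a further inhibitor gene, *Cdkn1b*, and *Glb1*, whose enzyme is the usual stain for senescent cells. They were taken by name, as genes known for a rise when mouse fibroblasts age in culture, out of 43629 genes in the count table, and all 10 were among the 14567 genes with enough reads to be tested. RNAseq was carried out on 4 wild-type (WT) and 5 Dp1Tyb cultures, each from a separate E14.5 embryo and grown for 2 passages. Dp1Tyb mice carry Dp(16Lipi-Zbtb21)1TybEmcf, an extra copy of the stretch of mouse chromosome 16 from *Lipi* to *Zbtb21* (GRCm38, chr16:75540514-97962622), and are used as a model of Down syndrome. WT cultures came from littermates without it, both on C57BL/6J.129P2 backcrossed to C57BL/6J, and no culture was treated. Every cell of a Dp1Tyb embryo carries the duplication, and none of the 10 genes lies within it.

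Fibroblasts put into culture divide for a limited number of passages and then stop, a state known as senescence. Mouse cells reach it by more than one route. By way of p53, DNA damage or other stress frees the transcription factor p53 from Mdm2, the ubiquitin ligase that marks it for degradation, and p53 then switches on genes such as *Cdkn1a*, whose product p21 inhibits cyclin-dependent kinases. By way of RB and p53 together, the *Cdkn2a* locus makes the proteins p16Ink4a, which inhibits the kinases that act on the RB protein, and p19Arf, which holds Mdm2 away from p53. p53 itself is regulated largely as a protein, so the amount of its mRNA and its activity need not move together.

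Library totals ranged from 25571442 to 30009361 counts in the WT group and from 24804539 to 26782380 counts in the Dp1Tyb group, and WT replicate 1 was the deepest. Levels are given as CPM, a count scaled to the size of its library, adjusted by edgeR's TMM factors. At this depth each of the 10 genes had at least 512 counts in every culture. The labels' culture codes begin with 1 for WT replicate 1 and Dp1Tyb replicate 1 and with 2 for the other 7 cultures, called set 1 and set 2 here, and the labels do not say what the number stands for. Over all tested genes, WT replicate 1 and Dp1Tyb replicate 2 stood apart. Their mean correlations with the other cultures were 0.967 and 0.959, against 0.976 to 0.982 for the other 7. On a first principal component that held 48.9% of the variance, Dp1Tyb replicate 2 was at 73.2. WT replicate 1 was at -40.4, close to Dp1Tyb replicate 3 at -34.4, and so stood apart less clearly on this component. The 10 genes and the counts of the pathway lists outside the duplicated region are therefore given with and without WT replicate 1 and Dp1Tyb replicate 2. Fibroblast markers were high in every culture, with 10 genes such as *Col1a1* and *Vim* summing to between 41176 and 68267 CPM. The cultures were grown from embryos without head and viscera and measured in bulk, so fewer cells of a type and less RNA per cell cannot be told apart.

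None of the 10 genes differed between Dp1Tyb and WT MEFs beyond the spread between cultures. With edgeR's quasi-likelihood test and Benjamini-Hochberg adjustment over all genes, 0 of 10 passed an adjusted p of 0.05, and each had an adjusted p of 0.9997. Over all genes 24 of 14567 passed, or 0.165%, all of them higher in Dp1Tyb. At an unadjusted p below 0.05 the count was 0 of 10, against 3.13% of all genes, and DESeq2 also called 0 of 10. In each of the 10 the CPM of the groups overlapped, while 1.36% of all genes had groups that did not, 0.686% with Dp1Tyb higher and 0.673% with Dp1Tyb lower. The log2 fold changes of Dp1Tyb vs WT lay between -0.08 and 0.26 with a median of 0.06, and 8 of 10 were above 0. Over all tested genes the median was 0.0027 and 51.0% were above 0. When WT replicate 1 and Dp1Tyb replicate 2 were both left out, 3 of 10 were above 0 and the median was -0.05.

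**Figure D1:**
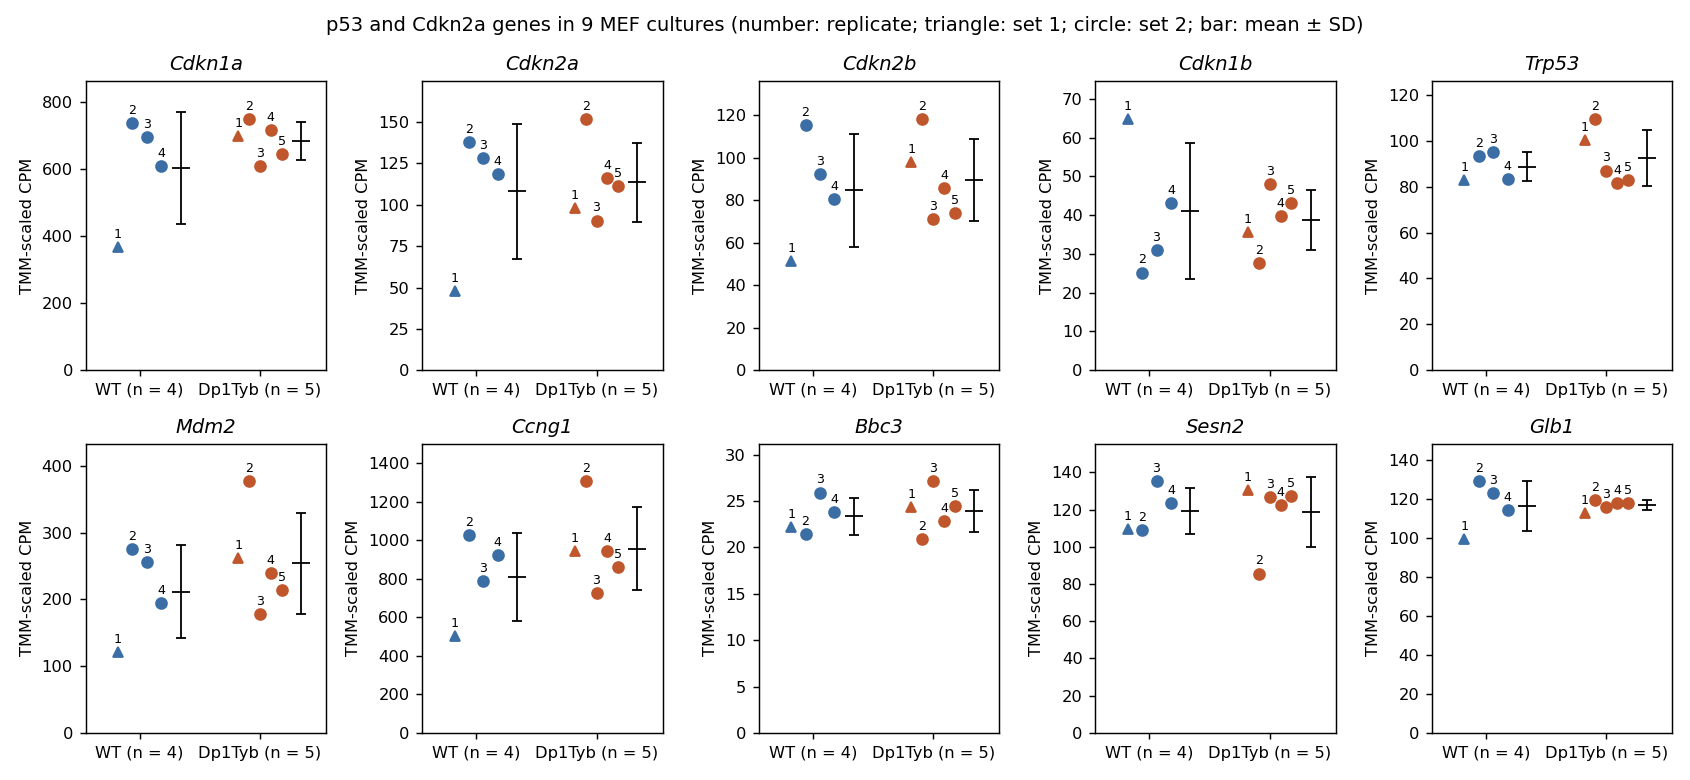
TMM-scaled CPM of each of the 10 genes (vertical axes, from 0) in the 4 WT (blue) and 5 Dp1Tyb (orange) cultures, one point per culture with its replicate number, triangles for set 1 and circles for set 2, beside the mean ± SD. In every panel the points of the 2 genotypes overlap; WT replicate 1 is lowest in 6 panels and Dp1Tyb replicate 2 is highest in 6.

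*Trp53* (ENSMUSG00000059552, chr11:69580359-69591873, plus strand, GRCm38) varied little. Its level was 83.0, 93.4, 94.9 and 83.4 CPM in WT replicates 1 to 4 and 100.5, 109.6, 87.0, 81.5 and 83.0 CPM in Dp1Tyb replicates 1 to 5. The 2 highest cultures were both Dp1Tyb, and so was the lowest, so that the groups overlapped throughout. Means were 88.7 ± 6.37 CPM (SD, n = 4) in WT and 92.3 ± 12.2 CPM (SD, n = 5) in Dp1Tyb, a log2 fold change of 0.06 with a 95% interval from -0.17 to 0.29. In linear terms the interval ran from 0.889-fold to 1.22-fold. Its SD over the 9 cultures, on the log2 scale, was above that of 30.5% of tested genes. The annotation also holds a processed pseudogene, *Trp53-ps*, on chromosome 17, and reads that fitted both places would have been discarded.

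*Mdm2* (ENSMUSG00000020184, chr10:117688875-117710758, minus strand) is at once the inhibitor of p53 and one of its targets, which closes a feedback loop. It was at 121, 276, 256 and 195 CPM in the WT cultures and at 263, 377, 178, 239 and 213.5 CPM in the Dp1Tyb cultures. WT replicate 1 was the lowest of the 9 and Dp1Tyb replicate 2 the highest, 3.10-fold apart, and the other 7 cultures lay between 178 and 276 CPM in both genotypes. The log2 fold change, the largest of the 10, was 0.26 (95% interval -0.34 to 0.86). It was 0.07 without WT replicate 1, and -0.11 when Dp1Tyb replicate 2 was left out as well.

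*Cdkn1a* (ENSMUSG00000023067, chr17:29090976-29100727, plus strand) is the main route by which p53 halts the cell cycle. WT replicates 1 to 4 had 366, 739, 697 and 609 CPM, and Dp1Tyb replicates 1 to 5 had 698, 750.4, 608, 717 and 645 CPM. WT replicate 1 stood well below the others, and the remaining 8 lay within a narrow band from 608 to 750.4 CPM that held both genotypes. The means were 603 ± 167 CPM (SD, n = 4) and 684 ± 56.8 CPM (SD, n = 5), and the log2 fold change of 0.18 (95% interval -0.23 to 0.59, or 0.852-fold to 1.51-fold) fell within this spread. An exact permutation test over all ways to relabel the 9 cultures, two-sided, gave p = 0.365, where 0.0079 is the smallest p it allows. Without WT replicate 1 the log2 fold change was 0.0056 (95% interval -0.22 to 0.23). The gene is overlapped on the opposite strand by *AC167363.2*, and the strand setting of the counting is not given in the sources used here.

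*Ccng1* (ENSMUSG00000020326, chr11:40748552-40755311, minus strand) encodes cyclin G1, a p53 target that takes part in the control of Mdm2. Levels were 503, 1029.8, 788 and 924 CPM in WT and 946, 1306, 727, 944 and 861 CPM in Dp1Tyb cultures. Here too WT replicate 1 was lowest and Dp1Tyb replicate 2 highest, and the log2 fold change was 0.24 (95% interval -0.26 to 0.74), or 0.07 without WT replicate 1 and -0.07 without both.

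*Bbc3* (ENSMUSG00000002083, chr7:16308393-16318205, plus strand), the gene of the pro-apoptotic protein PUMA, was among the steadiest of the 10. It had 22.2, 21.4, 25.9 and 23.9 CPM in WT and 24.4, 20.96, 27.1, 22.8 and 24.4 CPM in Dp1Tyb cultures, a log2 fold change of 0.04 (95% interval -0.17 to 0.24). The culture with the highest *Ccng1*, *Mdm2* and *Cdkn1a*, Dp1Tyb replicate 2, had the lowest *Bbc3*. *Sesn2* (ENSMUSG00000028893, chr4:132492032-132510501, minus strand) encodes a sestrin, a stress protein that restrains the growth kinase mTORC1 and that answers to other stress pathways besides p53. Its CPM was 109.7, 109, 135 and 124 in WT and 131, 85.6, 127, 123 and 127.5 in Dp1Tyb cultures. Dp1Tyb replicate 2 was again the lowest and the other 4 Dp1Tyb cultures lay close together, and the log2 fold change was -0.01 (95% interval -0.30 to 0.28). *Gm12981* overlaps *Sesn2* on the same strand.

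To show what 3 of the p53 targets that moved together over the cultures carry at their starts, their promoter windows of 300 bases are given, 250 before the start and 50 after it, from RefSeq for GRCm38.p6. All 10 genes were matched, with 14 windows. Capitals mark each exact match to the p53 half-site consensus, a motif of 10 bases. Its reverse complement is itself, so that 1 search covers both strands. Stretches with a mismatch were left in lower case.
*Cdkn1a*, chr17:29090729-29091028, plus strand: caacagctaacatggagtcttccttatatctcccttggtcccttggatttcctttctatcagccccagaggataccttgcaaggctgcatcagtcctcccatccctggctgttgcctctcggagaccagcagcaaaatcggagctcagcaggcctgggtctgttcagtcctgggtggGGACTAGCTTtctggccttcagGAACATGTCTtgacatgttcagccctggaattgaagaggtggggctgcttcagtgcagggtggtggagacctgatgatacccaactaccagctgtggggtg
*Mdm2*, chr10:117710709-117711008, minus strand: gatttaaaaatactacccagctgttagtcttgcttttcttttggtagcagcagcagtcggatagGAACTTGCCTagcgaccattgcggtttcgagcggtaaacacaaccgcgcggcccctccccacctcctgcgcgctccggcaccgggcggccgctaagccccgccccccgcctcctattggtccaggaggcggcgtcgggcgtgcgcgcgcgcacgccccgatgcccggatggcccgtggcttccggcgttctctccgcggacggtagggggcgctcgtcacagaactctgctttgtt
*Ccng1*, chr11:40755237-40755536, minus strand: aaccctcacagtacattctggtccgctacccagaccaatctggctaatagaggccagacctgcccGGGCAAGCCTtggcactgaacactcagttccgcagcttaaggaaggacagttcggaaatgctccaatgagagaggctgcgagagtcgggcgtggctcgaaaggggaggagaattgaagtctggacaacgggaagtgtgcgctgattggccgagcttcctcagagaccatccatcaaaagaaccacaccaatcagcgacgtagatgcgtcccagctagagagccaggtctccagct
The *Cdkn1a* window shown held 2 half-sites, the first from 73 to 64 and the second from 51 to 42 bases before the start, with 12 bases between them, and the window of its other start, chr17:29093519-29093818, held 0. The *Mdm2* window held 1, from 186 to 177 bases before the start, the *Ccng1* window 1, from 185 to 176, and *Trp53* itself 1, from 75 to 66. Thus 4 of the 14 windows had a half-site, against 8.36% of all 32851 promoter windows. Pairs of exact matches no more than 13 bases apart occurred in 0.0731% of all windows, and among the 10 genes in *Cdkn1a* alone. Half-sites with a mismatch were not counted, also where they lie right beside a marked one. A full site that includes such a half-site is therefore missed, and the *Cdkn1a* pair counted here need not be the site that p53 uses. A match is a likeness of letters and not a measured binding site, and for the genes without one it says only that these letters are not in this window.

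The *Cdkn2a* and *Cdkn2b* genes lie side by side on chromosome 4 and act above the RB protein. *Cdkn2a* (ENSMUSG00000044303, chr4:89274471-89294653, minus strand) had 48.0, 138, 128.5 and 118 CPM in WT and 98.0, 152, 90.5, 116 and 111 CPM in Dp1Tyb cultures. It had the widest range of the 10, 3.17-fold from WT replicate 1 to Dp1Tyb replicate 2, and its SD was above that of 82.5% of tested genes. Among the other 7 cultures WT held the 3 highest values, from 118 to 138 CPM, and Dp1Tyb the 4 from 90.5 to 116 CPM. How many of all genes part in this way over these 7 cultures was not counted. The log2 fold change was 0.07 (95% interval -0.55 to 0.70) over all cultures, and -0.17 (-0.53 to 0.18) without WT replicate 1. With Dp1Tyb replicate 2 left out as well, a step chosen after the values were seen, it was -0.30 (-0.52 to -0.077) with an adjusted p of 0.490 in edgeR. In that fit 1 of the 10 genes had an unadjusted p below 0.05, against 1418 of all 14603 genes tested. The 2 annotated transcripts, for p16Ink4a and p19Arf, share exons, and counts per gene do not separate them.

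*Cdkn2b* (ENSMUSG00000073802, chr4:89306299-89311039, minus strand) encodes p15Ink4b, which inhibits the same kinases as p16Ink4a. It was at 51.3, 115, 92.1 and 80.4 CPM in WT and at 98.0, 118, 71.1, 85.8 and 73.8 CPM in Dp1Tyb cultures, with the same lowest and highest culture as *Cdkn2a*. Its log2 fold change was 0.08 (95% interval -0.43 to 0.59), and -0.10 without WT replicate 1.

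*Cdkn1b* (ENSMUSG00000003031, chr6:134920401-134925513, plus strand) encodes p27, an inhibitor that is high in resting cells and is not a classical p53 target. Its CPM was 64.9, 25.2, 30.9 and 43.0 in WT and 35.6, 27.6, 48.1, 39.9 and 43.1 in Dp1Tyb cultures. The order of cultures was turned round, with WT replicate 1 the highest and WT replicate 2 and Dp1Tyb replicate 2 the lowest. The log2 fold change was -0.08 (95% interval -0.67 to 0.51), and 0.24 (-0.24 to 0.71) without WT replicate 1.

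*Glb1* (ENSMUSG00000045594, chr9:114401076-114474898, plus strand) encodes lysosomal beta-galactosidase, the activity behind the common stain for senescence. It was at 99.7, 129, 123 and 114 CPM in WT and at 113, 119.8, 116, 118 and 118 CPM in Dp1Tyb cultures, means of 117 ± 12.8 CPM (SD, n = 4) and 117 ± 2.73 CPM (SD, n = 5). The 5 Dp1Tyb cultures lay inside the WT range. The log2 fold change was 0.0042, and its 95% interval from -0.17 to 0.18, or 0.887-fold to 1.13-fold, was the narrowest of the 10. *Tmppe* overlaps *Glb1* on the same strand.

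**Figure D2:**
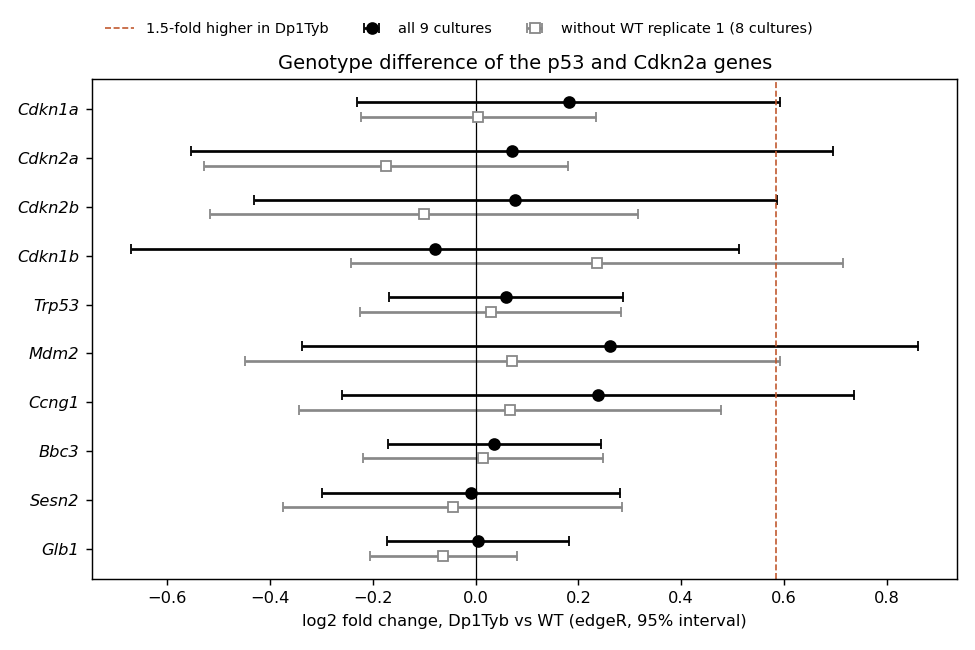
Log2 fold change of Dp1Tyb vs WT (horizontal axis) with its 95% interval for each of the 10 genes, over all 9 cultures (black circles) and without WT replicate 1 (grey squares); the dashed line marks a 1.5-fold rise. All 20 intervals include 0, and leaving out WT replicate 1 moves *Cdkn1a* from 0.18 to 0.0056 and *Cdkn2a* from 0.07 to -0.17.

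The lowest and the highest culture were often the same from gene to gene. WT replicate 1 was the lowest of all 9 cultures in *Cdkn1a*, *Cdkn2a*, *Cdkn2b*, *Mdm2*, *Ccng1* and *Glb1*, and the highest in *Cdkn1b*. Dp1Tyb replicate 2 was the highest in *Cdkn1a*, *Cdkn2a*, *Cdkn2b*, *Trp53*, *Mdm2* and *Ccng1*, and the lowest in *Bbc3* and *Sesn2*. The ratio of the highest to the lowest culture was 3.17 for *Cdkn2a*, 3.10 for *Mdm2*, 2.60 for *Ccng1*, 2.57 for *Cdkn1b*, 2.31 for *Cdkn2b* and 2.05 for *Cdkn1a*. It was 1.58 for *Sesn2*, 1.34 for *Trp53*, 1.30 for *Glb1* and 1.29 for *Bbc3*. Thus, over all 9 cultures, the inhibitor genes and the *Mdm2* and *Ccng1* targets ranged more widely than the mRNA of p53 itself. For *Cdkn1a* this rested on WT replicate 1, as the other cultures lay between 608 and 750.4 CPM.

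The 2 sets of cultures are given apart, and the difference between them was not tested. In set 1, with 1 culture of each genotype and therefore no test, Dp1Tyb exceeded WT by 1.11 in log2 CPM for *Mdm2*, by 1.03 for *Cdkn2a*, by 0.93 for both *Cdkn1a* and *Cdkn2b* and by 0.91 for *Ccng1*, while *Cdkn1b* was lower, at -0.86. In set 2, with 3 WT and 4 Dp1Tyb cultures, the differences in mean log2 CPM were -0.004 for *Cdkn1a*, 0.004 for *Bbc3*, 0.02 for *Mdm2*, 0.05 for *Ccng1* and -0.10 for *Sesn2*. They were -0.15 for both *Cdkn2a* and *Cdkn2b* and 0.27 for *Cdkn1b*. Exact permutation tests over the 35 relabelings of set 2, two-sided, gave p between 0.343 and 0.971 for the 10 genes, and 0.0286 is the smallest p they allow.

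**Figure D3:**
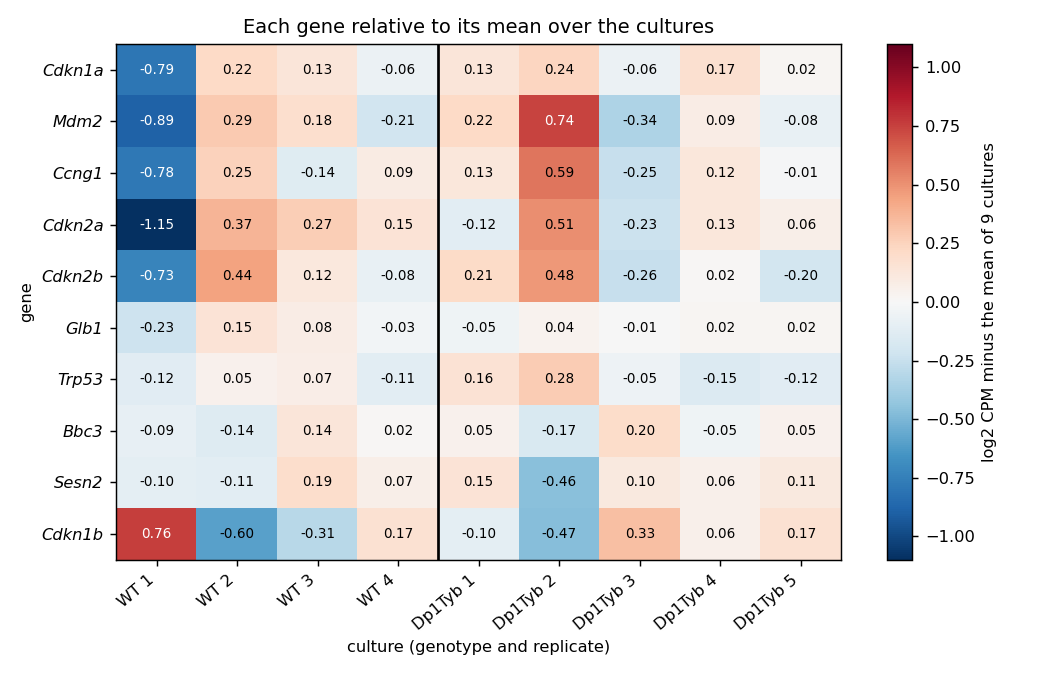
Log2 CPM of each gene minus its mean over the 9 cultures (colour and number in each cell), genes in rows and cultures in columns, with a line between WT and Dp1Tyb. WT replicate 1 is blue from *Cdkn1a* to *Cdkn2b*, at -1.15 for *Cdkn2a*, and red at 0.76 for *Cdkn1b*; Dp1Tyb replicate 2 reaches 0.74 for *Mdm2* and -0.46 for *Sesn2*.

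A group of 5 genes, *Cdkn1a*, *Mdm2*, *Ccng1*, *Cdkn2a* and *Cdkn2b*, moved together from culture to culture. These 5 were grouped after their values were seen. Pearson's r of log2 CPM over the 9 cultures was between 0.88 and 0.96 for their 10 pairs, and all 10 passed an adjusted p of 0.05 in exact permutation tests, two-sided, adjusted over 55 pairs. Those 55 were the 45 pairs among the 10 genes and each gene with the proliferation marker *Mki67*. In all, 21 of the 55 passed, 15 with a positive and 6 with a negative r, and with Spearman's rho 14 passed. Without WT replicate 1 the count was 8 of 55, and without it and Dp1Tyb replicate 2 it was 3. At an unadjusted p below 0.05 for Pearson's r, the counts were 25 over 9 cultures and 25 within set 2. They were 27 without WT replicate 1 and 10 without both. Within set 2 the 10 pairs had r between 0.69 and 0.92. Without the 2 cultures farthest from the median of the first gene of a pair, r was between 0.51 and 0.90. How many of all gene pairs would pass the same tests was not counted, so these counts do not set the genes apart from others. Of the other tested genes, 4.38% had an r of at least 0.8 with *Cdkn1a* and 8.26% with *Cdkn2a*.

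*Cdkn1a* and *Mdm2* kept their relation when cultures were left out. Over 9 cultures r was 0.90 (exact permutation p = 3.6e-05, adjusted p = 0.000985) and rho 0.95 (p = 0.00035, adjusted p = 0.0049), and r was 0.86 without the 2 farthest cultures and 0.90 within set 2. For *Cdkn1a* and *Ccng1*, r was 0.88 (exact permutation p = 0.0021, adjusted p = 0.0090) and rho 0.92 (p = 0.0013, adjusted p = 0.012), but r fell to 0.56 without the 2 farthest cultures and was 0.69 within set 2. These 2 farthest were WT replicate 1 and Dp1Tyb replicate 3, and r was 0.59 without WT replicate 1 and Dp1Tyb replicate 2. The neighbours *Cdkn2a* and *Cdkn2b* had an r of 0.88 (exact permutation p = 0.0019, adjusted p = 0.0090) and a rho of 0.82 (p = 0.011, adjusted p = 0.042). Their r was 0.61 without WT replicate 1 and Dp1Tyb replicate 2 and 0.92 within set 2.

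*Cdkn1b* ran opposite to the 5. Its r with *Cdkn2b* was -0.97 (exact permutation p = 5.8e-05, adjusted p = 0.0011) and its rho -0.97 (p = 0.00017, adjusted p = 0.0045), and r was -0.94 without the 2 farthest cultures and -0.96 within set 2. With *Cdkn1a* r was -0.85 (exact permutation p = 0.00025, adjusted p = 0.0028). With *Ccng1* r was -0.82 (exact permutation p = 0.0075, adjusted p = 0.022), but -0.64 within set 2 (p = 0.116). It was -0.52 without WT replicate 1 and Dp1Tyb replicate 2. *Bbc3* and *Sesn2* also moved together, with r = 0.81 (exact permutation p = 0.0035, adjusted p = 0.012) and rho = 0.88 (p = 0.0031, adjusted p = 0.017). Their r was 0.95 without the 2 farthest cultures and 0.80 within set 2. With the 5 genes, r of *Bbc3* and of *Sesn2* lay between -0.39 and 0.01 over the 9 cultures. Within set 2 all these pairs were negative, from -0.61 for *Cdkn1a* with *Sesn2* to -0.95 for *Ccng1* with *Bbc3*. Without WT replicate 1 and Dp1Tyb replicate 2, r was -0.95 for *Ccng1* with *Bbc3* but -0.22 for *Mdm2* with *Sesn2*. *Cdkn1a* and *Bbc3*, both p53 targets, had an r of 0.01 over the 9 cultures (exact permutation p = 0.974) and -0.75 within set 2 (p = 0.067). It was -0.59 without WT replicate 1 and Dp1Tyb replicate 3 and -0.62 without WT replicate 1 and Dp1Tyb replicate 2, so each of these values without WT replicate 1 was negative.

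**Figure D4:**
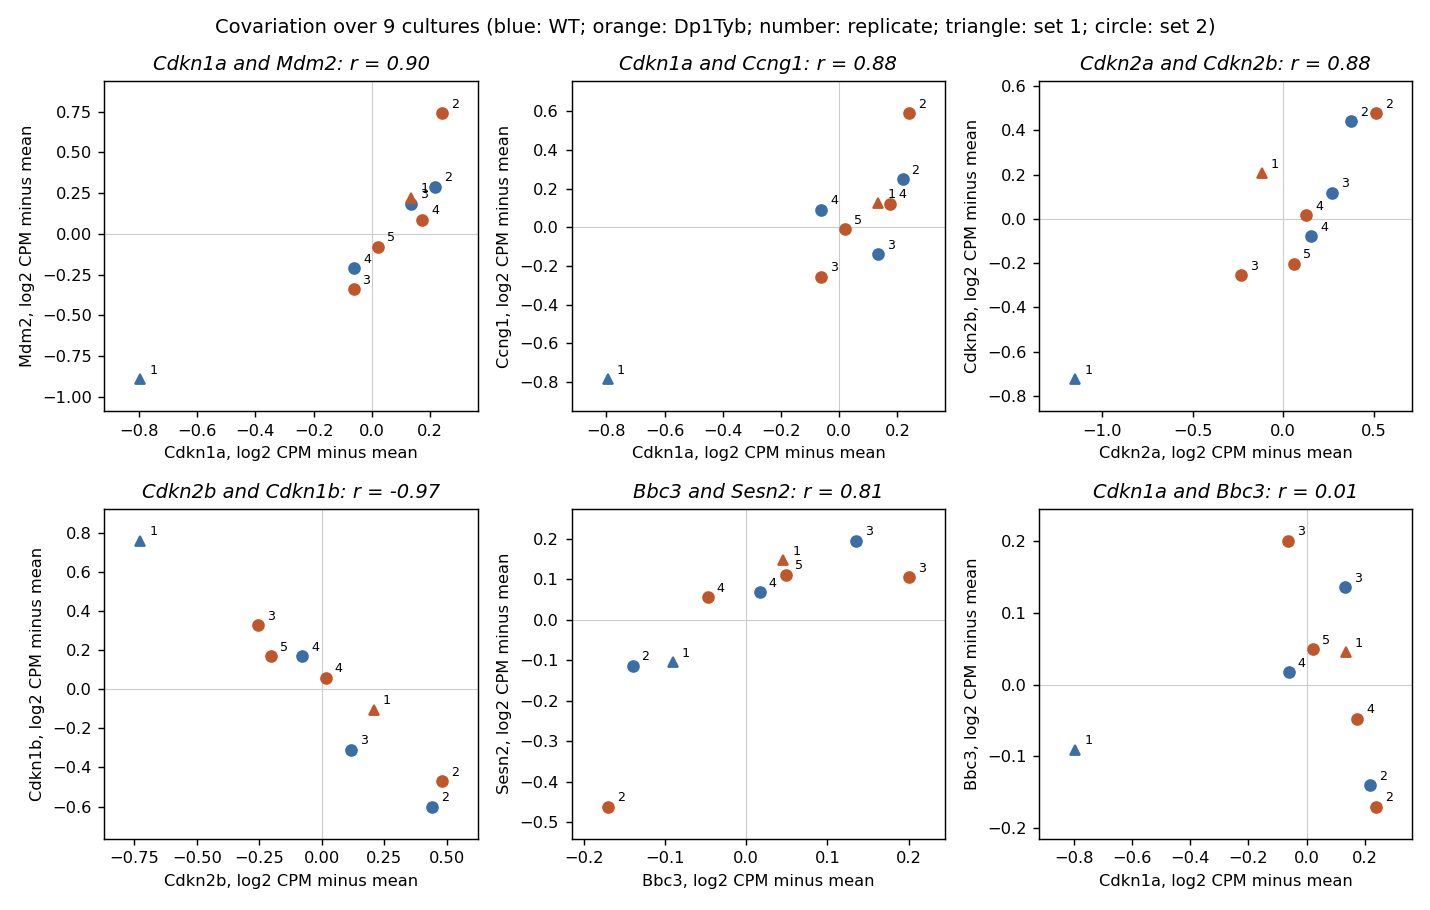
Scatter plots of 6 pairs of genes over the 9 cultures, each axis the log2 CPM minus the gene's mean, WT in blue and Dp1Tyb in orange with replicate numbers, triangles for set 1 and circles for set 2. *Cdkn1a* with *Mdm2* (r = 0.90) and *Cdkn2b* with *Cdkn1b* (r = -0.97) keep the direction of their slope without WT replicate 1, the point farthest out. *Cdkn1a* with *Bbc3* (r = 0.01) slopes down over the 7 cultures of set 2 (r = -0.75), with WT replicate 1 at the lower left.

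For *Trp53* mRNA, r was 0.49 with *Cdkn1a* (exact permutation p = 0.156, adjusted p = 0.267) and 0.76 with *Mdm2* (exact permutation p = 0.014, adjusted p = 0.038). Within set 2 these were 0.63 and 0.85, and without the 2 farthest cultures 0.63 and 0.54. *Glb1* had r = 0.88 with *Cdkn1a* (exact permutation p = 0.0070, adjusted p = 0.021) but 0.54 without the 2 farthest cultures. None of the 10 pairs with *Mki67*, a protein of dividing nuclei, had an unadjusted p below 0.05 for Pearson's r, which lay between -0.62 for *Cdkn1a* and 0.45 for *Cdkn1b*. With Spearman's rho 1 did, *Glb1* at -0.72 (exact permutation p = 0.037, adjusted p = 0.097).

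Other genes shared these patterns. Of the 14566 other tested genes, the 3 with the highest r to *Cdkn1a* over 9 cultures were *Hist1h4n* (r = 0.98), a histone gene at 0.283 to 2.05 CPM whose family of near-identical copies can share reads, *Arhgap27* (r = 0.98) and *Arl8a* (r = 0.98). For *Cdkn2a* they were *Gpr176*, *Relt* and *Slc25a1*, each with r = 0.99. Such likeness was common: 4.38% of genes had r of at least 0.8 with *Cdkn1a* and 3.82% of at most -0.8, and for *Cdkn2a* the shares were 8.26% and 7.003%. All 9 points share the cultures that stood apart over the whole transcriptome, and the r of *Arl8a* with *Cdkn1a* was 0.86 without WT replicate 1.

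Levels per length put *Ccng1* first. In RPKM, the CPM divided by the kilobases of exon of the gene, means over the 9 cultures were 254 ± 62.7 for *Ccng1*, 182 ± 33.1 for *Cdkn1a*, 94.9 ± 25.9 for *Cdkn2a*, 62.8 ± 15.4 for *Cdkn2b* and 46.3 ± 14.1 for *Mdm2* (SD, n = 9). Below these came *Glb1* at 38.8 ± 2.69, *Sesn2* at 34.2 ± 4.39, *Trp53* at 22.4 ± 2.39, *Bbc3* at 11.1 ± 0.964 and *Cdkn1b* at 8.75 ± 2.67 RPKM. The ranges over cultures of neighbours in this order overlapped, except those of *Trp53* and *Bbc3*. Within a culture the first 4 genes each lay above the next in 9 of 9 cultures, while *Mdm2* lay above *Glb1* in 7 of 9.

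The wider p53 and RB pathways were read from lists chosen for their known roles. Of 34 other p53 targets, 0 passed an adjusted p of 0.05 in edgeR, and 2, *Eda2r* and *Polk*, had an unadjusted p below 0.05. *Eda2r*, a death receptor, was at 88.6 ± 11.7 CPM (SD, n = 4) in WT and 106 ± 8.58 CPM (SD, n = 5) in Dp1Tyb, a log2 fold change of 0.26. *Polk*, a polymerase that copies across damaged DNA, had a log2 fold change of 0.25. The list's log2 fold changes were above 0 in 21 of 34 with a median of 0.07, and in 15 of 34 with a median of -0.04 when WT replicate 1 and Dp1Tyb replicate 2 were left out. The median was 0.01 without WT replicate 1 and 0.12 without WT replicate 3. DESeq2 also called 0 of the 34, and 0 in each of the other pathway lists outside the duplicated region. *Pmaip1*, the gene of the pro-apoptotic protein NOXA, showed the same 2 cultures at its ends, with 40.5 CPM in WT replicate 1, 184 CPM in Dp1Tyb replicate 2 and 92.1 to 128 CPM in the other 7. Its log2 fold change was 0.35 with an adjusted p of 0.9997 in edgeR. *Phlda3*, which encodes an inhibitor of Akt, was at 130.4 CPM in WT replicate 1 and 162 to 212 CPM elsewhere, and *Ephx1*, an epoxide hydrolase gene, had a log2 fold change of -0.03. *Cyfip2*, at -0.41 (-0.85 to 0.04), lay furthest below 0 in this list.

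Among the 16 tested of 17 regulators of p53, 0 passed and 0 had an unadjusted p below 0.05, with 6 above 0 and a median of -0.02. The sign of this median turned with the cultures, with 10 of 16 above 0 (median 0.05) without WT replicate 1, 11 of 16 (0.05) without both WT replicate 1 and Dp1Tyb replicate 2 and 3 of 16 (-0.07) without WT replicate 2. The deubiquitinase *Usp7*, which stabilises Mdm2 and p53, had a log2 fold change of 0.02 (95% interval -0.12 to 0.15) and the ubiquitin ligase *Rchy1* -0.04. The kinases *Chek2* and *Hipk2*, which phosphorylate p53, had 0.16 each. The 19 cyclins, kinases, inhibitors and RB family genes gave 0 that passed and 1, *Cdkn2c*, with an unadjusted p below 0.05. Of the 19, 7 were above 0 with a median of -0.08, and 5 with -0.08 without WT replicate 1 and Dp1Tyb replicate 2, while without WT replicate 1 alone the median was -0.04 and without WT replicate 2 -0.12. *Cdkn2c*, the gene of p18Ink4c, was at 16.4, 13.6, 14.1 and 14.2 CPM in WT and 11.8, 7.41, 13.7, 8.58 and 11.5 CPM in Dp1Tyb cultures. Its groups overlapped by 1 Dp1Tyb culture, and the log2 fold change was -0.46 (-0.85 to -0.07) with an adjusted p of 0.9997 in edgeR. *Cdkn1c*, the gene of p57, spanned from 28.9 CPM in Dp1Tyb replicate 2 to 345 CPM in WT replicate 1, with WT replicate 1 highest as for *Cdkn1b*. *Cdk4*, a kinase held by p16Ink4a, had a log2 fold change of -0.08 and its partner *Ccnd2* -0.16.

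Of 20 regulators of the *Cdkn2a* locus, among them the Polycomb proteins that silence it, 0 passed, 0 had an unadjusted p below 0.05 and 7 were above 0, with a median of -0.05. Without WT replicate 1 this became 10 of 20 with a median of -0.00065, without Dp1Tyb replicate 2 it became 10 of 20 with -0.0037, and without both 11 of 20 with 0.07. *Ezh2*, the Polycomb methyltransferase, had a log2 fold change of -0.23 (95% interval -0.49 to 0.02), *Tbx2*, a repressor of the locus, 0.22, *Id1* -0.15 and *Twist1* 0.01. For 18 other lysosomal genes, 0 passed, 10 were above 0 and the median was 0.01. Without WT replicate 1 and Dp1Tyb replicate 2 the count was 11 and the median 0.01, and with single cultures left out the median ranged from -0.04 without Dp1Tyb replicate 3 to 0.05 without Dp1Tyb replicate 1. *Gla*, alpha-galactosidase, had an unadjusted p below 0.05 with a log2 fold change of -0.29. The proteases *Ctsd* and *Ctsl* had -0.03 and 0.16, and *Lamp1* of the lysosomal membrane had -0.04. Thus *Glb1* and the other lysosomal genes lay on both sides of 0.

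All 15 genes of dividing cells had log2 fold changes below 0, with a median of -0.15, but 0 passed and 0 had an unadjusted p below 0.05. With DESeq2's size factors 1 of 15 was above 0, without WT replicate 1 it was 3, and without both WT replicate 1 and Dp1Tyb replicate 2 it was 2. The median moved to -0.06 without Dp1Tyb replicate 4, to -0.28 without Dp1Tyb replicate 1 and to -0.27 within set 2. *Mki67* was at 113, 72.7, 92.2 and 96.1 CPM in WT and at 102, 68.4, 72.9, 58.4 and 88.8 CPM in Dp1Tyb cultures, a log2 fold change of -0.26 (95% interval -0.65 to 0.13). *Aurkb*, a mitotic kinase, had -0.35, *Rrm2*, which makes DNA precursors, -0.25, and *Pcna*, the replication clamp, -0.12. The 15 secreted factors tied to senescence were spread from -0.65 for *Igfbp5* to 1.14 for *Cxcl2*, with 10 above 0, a median of 0.20, 0 that passed and 0 with an unadjusted p below 0.05. Without WT replicate 1 and Dp1Tyb replicate 2, 8 of 15 were above 0 with a median of 0.03, and the median was 0.13 without WT replicate 1, 0.10 without Dp1Tyb replicate 2, 0.36 without WT replicate 2, 0.31 without WT replicate 4 and 0.02 with DESeq2 and its beta prior. *Cxcl2* was at no more than 11.3 CPM and its interval ran from -1.45 to 3.73. *Igfbp7* had 135 CPM in WT replicate 1 and 508 CPM in Dp1Tyb replicate 2, with 274 to 336 CPM in the other 7, and *Timp1* ranged from 145 to 609 CPM between the same 2 cultures.

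Of 5 genes with a known tie to these pathways inside the duplicated region, 2 rose in Dp1Tyb. *Usp16* (chr16:87454703-87483517), which removes ubiquitin from histone H2A and so opposes Polycomb, was at 61.1, 67.8, 62.0 and 67.7 CPM in WT and 91.1, 107, 91.3, 98.2 and 91.4 CPM in Dp1Tyb cultures. The groups were clear of each other, with a 1.48-fold rise (log2 0.57, adjusted p = 0.018, edgeR). *Dyrk1a* (chr16:94570010-94695517), a kinase that acts on cyclin D and p27, was at 53.5, 47.4, 48.7 and 49.1 CPM in WT and 69.8, 69.4, 71.8, 67.6 and 72.3 CPM in Dp1Tyb cultures. It rose 1.41-fold (log2 0.50, adjusted p = 0.012, edgeR), again with no overlap. *Usp16* was lowest in WT replicate 1 and highest in Dp1Tyb replicate 2, like 5 of the 10 genes, while *Dyrk1a* was highest of the WT cultures in WT replicate 1. Both calls were lost when WT replicate 2, 3 or 4 or Dp1Tyb replicate 5 was left out, and that of *Usp16* alone without WT replicate 1 or Dp1Tyb replicate 4, though both genes stayed above 0.

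The other 3 linked genes had larger spreads. *Btg3* (chr16:78332637-78377192), an antiproliferative gene that p53 can switch on, was at 15.4, 28.1, 20.8 and 21.8 CPM in WT and at 32.6, 54.4, 28.3, 36.4 and 32.9 CPM in Dp1Tyb cultures. Its lowest Dp1Tyb culture was just above its highest WT culture. The log2 fold change was 0.78 (95% interval 0.29 to 1.26), with an unadjusted p of 0.0051 and an adjusted p of 0.749 in edgeR. *Bach1* (chr16:87698945-87733346), a haem-sensing repressor that can bind p53, had a log2 fold change of 0.66 (95% interval 0.27 to 1.05). Its unadjusted p was 0.0037 and its adjusted p 0.648 in edgeR. *Ets2* (chr16:95702075-95721051), a transcription factor that can activate the *Cdkn2a* locus, had 0.38 (95% interval -0.06 to 0.81) with an adjusted p of 0.9997. All 5 were above 0 under each other processing tried. Within set 2, and in the fit with the replicate block, 0 of the 5 passed.

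**Figure D5:**
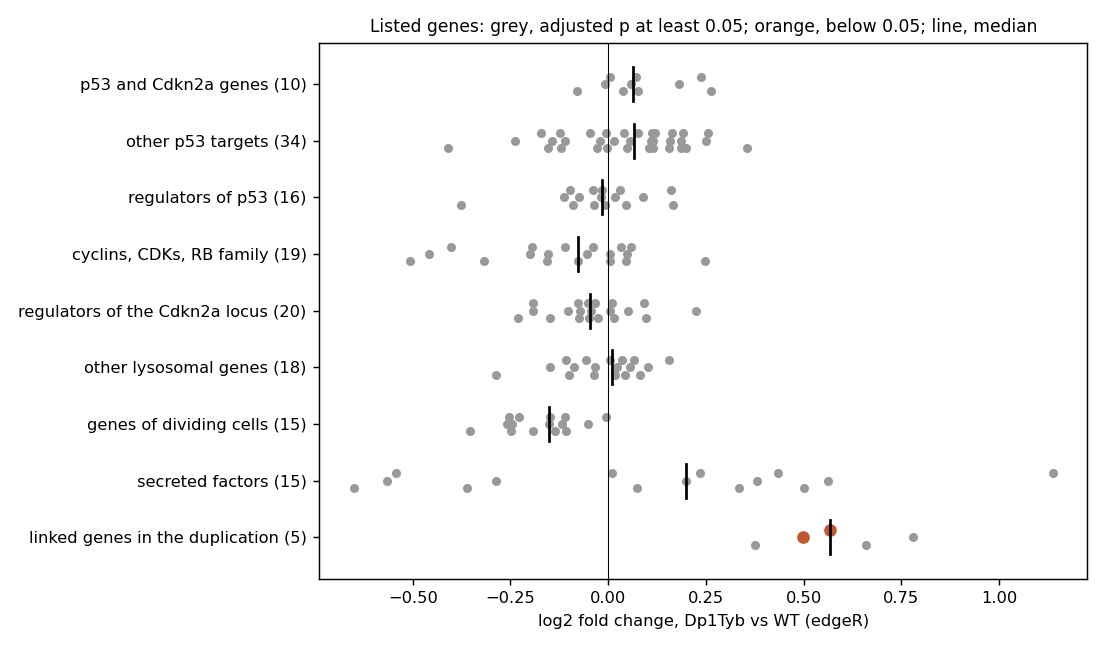
Log2 fold change of Dp1Tyb vs WT (horizontal axis) for each tested gene of the lists, one point per gene with the number tested in parentheses, and a line at each list's median; orange points have an adjusted p below 0.05. The orange points are *Usp16* and *Dyrk1a* in the duplicated region; the 10 genes described here lie between -0.08 and 0.26, and all 15 genes of dividing cells lie below 0, where 3 of them were above 0 without WT replicate 1.

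Markers of other cells moved between cultures as well. The 10 macrophage genes, all detected, summed to between 72.7 and 275 CPM in WT and between 19.9 and 400 CPM in Dp1Tyb, with the lowest sum in Dp1Tyb replicate 2, and 0 of 10 passed the test. Of 6 Schwann cell genes, such as *Sox10*, 5 were tested in edgeR and 0 passed, but all 5 were below 0, 4 had an unadjusted p below 0.05 and 3, *Sox10*, *Foxd3* and *Erbb3*, had groups that did not overlap. Over all tested genes 3.13% had an unadjusted p below 0.05 in either direction, and 0.673% had groups apart with Dp1Tyb lower. DESeq2 tested all 6 Schwann cell genes and called 3 of them, lower in Dp1Tyb, against 67 of 24467 genes. In edgeR without WT replicate 1 and Dp1Tyb replicate 2, all 6 were tested and below 0, and 0 passed. The Schwann cell genes summed to between 31.2 and 61.6 CPM in WT and between 9.63 and 31.9 CPM in Dp1Tyb cultures. Skeletal muscle genes summed to 225 CPM in Dp1Tyb replicate 2 and to no more than 60.1 CPM elsewhere. Of these sums 223 and 59.5 CPM were *Acta1* alone, while *Mylpf* reached 1.56 CPM and the other 6 genes, *Myod1* and *Myog* among them, no more than 0.227 CPM. Endothelial genes summed to no more than 21.2 CPM, epithelial genes to no more than 10.9 CPM, and blood genes to no more than 0.183 CPM. The part of these cells in the levels of the 10 genes was not tested.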

How the data were processed

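Per the labels and the paper, the authors made libraries with a stranded mRNA kit, sequenced 100 base paired-end reads, trimmed them with Trim Galore, mapped them to GRCm38 with TopHat2 2.0.12, left out multiply aligned reads and ran htseq-count on the rest, gene by gene. The annotation release and strand setting are not given in the sources used here. The deposited raw counts were used; the authors' normalised counts and their DESeq2 1.6.3 table of fold changes and p-values were not.

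Counts were tested with edgeR 4.0.16 in R 4.3.3 (TMM, edgeR's filter on low counts, quasi-likelihood test, two-sided, Benjamini-Hochberg over 14567 genes), after a check on simulated data. Intervals come from the same fit. Correlations used log2 CPM with a prior count of 2 and all 362880 pairings. RPKM used exon lengths of GENCODE M21, which matched 42462 of 43629 genes. Python 3.11.15 with scipy 1.17.1 was used.

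The 10 genes, the lists and the tests were chosen with earlier results of these data known. From each list the text names every gene that passed, or otherwise the 2 with the highest mean RPKM and, of those with a mean RPKM of at least 1, the 2 farthest from 0 in log2 fold change, every listed gene of the duplicated region, and the 3 genes most correlated with *Cdkn1a* and with *Cdkn2a*. *Eda2r* and *Polk* were named after their values were seen. The alternatives were DESeq2 1.42.0 with and without its beta prior, its size factors, other filters, a prior count of 0.5, the culture set as a covariate, set 2 alone, a replicate block and each culture left out. Leaving out WT replicate 1 and Dp1Tyb replicate 2 together was added after the data were seen.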

Additional observations from a re-analysis of the deposited data

Results flagged for a closer look

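Within each group, the highest or lowest culture was set against the others by Dixon's test, which flags about 1 in 20 groups by chance. Of 86 groups over 43 named genes, 8 had such a culture, 4 of them in Dp1Tyb replicate 2 and 2 in WT replicate 1, the cultures that stood apart over all genes. The one among the 10 genes was *Sesn2*, at 85.6 CPM in Dp1Tyb replicate 2 against 123 to 131 CPM in the other Dp1Tyb cultures. In the same culture *Ctsd* was at 3251 CPM against 2452 to 2662 CPM, *Timp1* at 609 CPM against 195 to 259 CPM, and *Igfbp7* at 508 CPM against 274 to 336 CPM. In WT replicate 1 *Pmaip1* was at 40.5 CPM against 111 to 119.6 CPM in the other WT cultures, and *Ctsl* at 674 CPM against 943 to 990.0 CPM. *Ezh2* was at 16.5 CPM in Dp1Tyb replicate 4 against 20.2 to 20.8 CPM, and *Cxcl2* at 8.03 CPM in WT replicate 4 against 0.235 to 1.04 CPM.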

How the results depend on the processing

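The count of 0 of 10 genes called was the same under all 18 alternatives, and the lowest adjusted p in any of their 180 fits was 0.490. The sign of a log2 fold change turned in 30 of these fits. Within set 2 the values were -0.0037 for *Cdkn1a*, -0.13 for *Cdkn2a*, -0.14 for *Cdkn2b*, 0.26 for *Cdkn1b*, -0.0048 for *Trp53* and -0.051 for *Glb1*, and *Cdkn1b* was at 0.0088 with the culture set as a covariate. Without WT replicate 1 and Dp1Tyb replicate 2 they were -0.029 for *Cdkn1a*, -0.30 for *Cdkn2a*, -0.22 for *Cdkn2b*, 0.34 for *Cdkn1b*, -0.037 for *Trp53*, -0.11 for *Mdm2*, -0.068 for *Ccng1*, 0.053 for *Sesn2* and -0.070 for *Glb1*. With single cultures left out the ranges were 0.0056 to 0.29 for *Cdkn1a*, -0.17 to 0.21 for *Cdkn2a*, -0.10 to 0.26 for *Cdkn2b*, -0.25 to 0.24 for *Cdkn1b*, -0.011 to 0.10 for *Trp53*, 0.07 to 0.41 for *Mdm2*, 0.07 to 0.37 for *Ccng1*, -0.012 to 0.091 for *Bbc3*, -0.0495 to 0.088 for *Sesn2* and -0.0625 to 0.057 for *Glb1*. The 2 listed pathway genes called, *Usp16* and *Dyrk1a*, became 0 within set 2 and 0 with the replicate block, and 0 to 2 with single cultures left out. The labels do not say whether same-numbered cultures are paired. Their deviations correlated at 0.259, 0.741, 0.031 and 0.378 for replicates 1 to 4, all above 0, which does not settle the point. Over all genes 24 were called, against 67 with DESeq2 with or without its beta prior, 16 without a filter, 1 within set 2, 0 with the block, 40 without both cultures and 2 to 26 with single cultures left out. Of 55 pairs, 21 passed over 9 cultures, 9 within set 2, 4 without the 2 farthest cultures, 3 without both cultures and 8 to 22 with single cultures left out, the 8 without WT replicate 1. Settings with cultures left out hold fewer samples, and the cause of the other changes was not tested. At 4 and 5 cultures the spread limits what can be seen: the intervals ran from 0.681-fold to 1.62-fold for *Cdkn2a* and from 0.792-fold to 1.82-fold for *Mdm2*.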
